A study of Mus musculus with 2 samples.

Results

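The axon guidance ligands and receptors were 68 protein-coding genes among the 55323 rows of the deposited table, taken by their gene names alone. They comprised 20 semaphorins of classes 3 to 7, 9 plexins, 2 neuropilins, 8 ephrins, 14 Eph receptors, 4 netrins, 4 Unc5 receptors, 3 Slits and 4 Robos, which makes 35 ligands and 33 receptors. RNA had been sequenced from TgS1, a mouse Schwann cell line whose genotype is labelled TTR V30M tg, a transgene of human transthyretin (TTR). For 1 library the cells had been cultured long-term in SCM, a medium that the labels do not spell out, and for the other they had been kept long-term in DMEM, a basal medium in common use. Both libraries share the line and the transgene, so the medium is the labelled difference. With 1 library per medium there is no replicate check and no p-value between media, and every difference given here is a difference between these libraries.

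Guidance cues tell growing axons and migrating cells where to go, and they work in families of matched ligands and receptors. Semaphorins act through plexins, and most of the secreted class 3 semaphorins need a neuropilin as co-receptor. Ephrins are bound to the cell surface and signal to Eph receptor tyrosine kinases on neighbouring cells, netrins act through Dcc, neogenin and Unc5 receptors, and Slits through Robo receptors. In peripheral nerve, Schwann cells both carry and respond to these cues, and after injury semaphorin, ephrin and Slit signals take part in the movement of Schwann cells and the path of regrowing axons.

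The read total over the table was 36666676 in SCM and 29085791 in DMEM, of which the guidance genes took 0.486% and 0.609%. Markers of Schwann cells were present in both, with Sox10 at 113 FPKM in SCM and 126 FPKM in DMEM, and 11 of the 12 listed markers measured. FPKM is a fragment count per kilobase of gene length, scaled to the total of its library. Of the markers of other cells, 0 of 8 endothelial and 0 of 8 neuronal genes reached 1 FPKM, and 1 of 8 macrophage genes did (Cd68). Of 5 melanocyte genes 1 did (Mitf), of 6 perineurial genes 3 and of 8 fibroblast genes 3. The measured fibroblast genes were Postn, at 44.6 FPKM in SCM and 119 FPKM in DMEM, Pdgfrb, at 10.6 FPKM in SCM and 7.86 FPKM in DMEM, and Col1a2, at 3.15 FPKM in SCM and 0.742 FPKM in DMEM, so that Postn was lower in SCM and the others higher. Col1a1 and Lum had 0 reads in both libraries. The summed fibroblast list, most of it Postn, stood at 58.5 FPKM in SCM and 128 FPKM in DMEM, and the perineurial list, which holds Ntn4 itself, at 49.1 FPKM in SCM and 35.0 FPKM in DMEM. The endothelial list summed to 0.221 FPKM in SCM and 0.425 FPKM in DMEM, the neuronal to 0.297 FPKM and 0.121 FPKM, the macrophage to 1.52 FPKM and 1.44 FPKM and the melanocyte to 7.06 FPKM and 6.33 FPKM. The part of the fibroblast and perineurial genes in the results below was not tested. In RNA from a whole culture, fewer cells that express a gene and less of its RNA per cell cannot be told apart.

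Of the 68 genes, 33 reached 1 FPKM in 1 or both libraries and are called measured. Another 24 had at least 1 read but stayed under 1 FPKM in both, and 11 had 0 reads in both. The measured genes rested on 190 to 30304 reads each in SCM and on 35 to 26293 reads in DMEM. The genes nearest the limit were Sema3f (1.21 FPKM in SCM and 0.232 FPKM in DMEM) on the inside and Sema4d (0.934 FPKM in SCM and 0.631 FPKM in DMEM) on the outside. The ligands Sema3e, Sema3b and Efnb1 and the receptors Plxnb3, Epha5, Plxna1, Nrp1 and Plxnd1 had the highest levels in SCM. In DMEM the leading receptors were Plxnb3, Plxnd1, Nrp1, Epha5 and Nrp2. Of the Eph receptors 7 of 14 were measured and of the ephrins 2 of 8, whereas 0 Slit, Robo or Unc5 genes were measured.

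**Figure D1:**
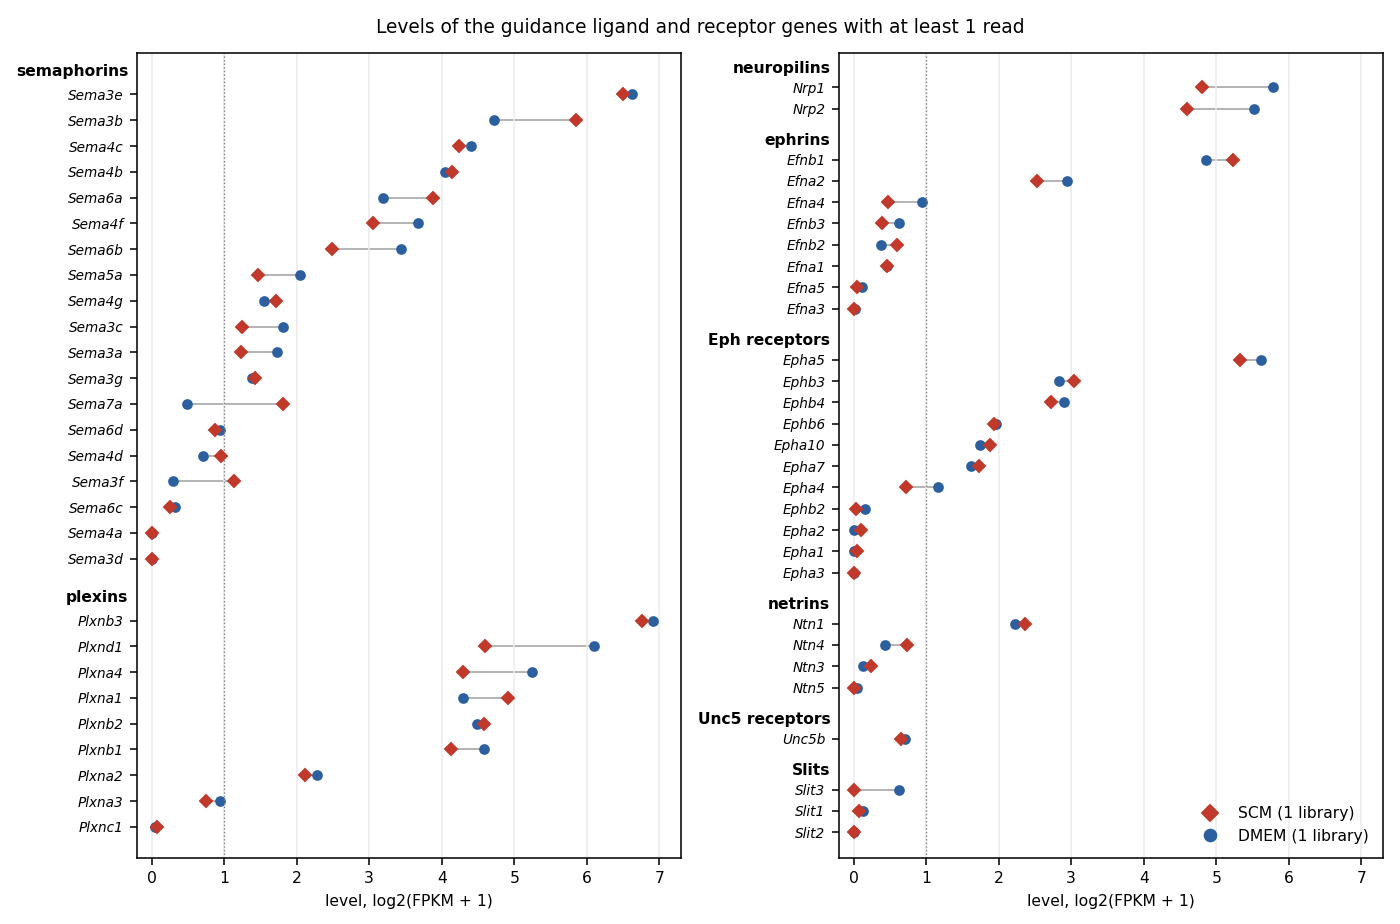
Level of each guidance gene with at least 1 read, as log2(FPKM + 1) on the horizontal axis, with red diamonds for the SCM library and blue circles for the DMEM library; the dotted line stands at 1 FPKM. Plxnd1, Plxna4, Nrp1 and Nrp2 lie further left in SCM, Sema3b and Sema7a further right, and the Slits lie below the line in both libraries.

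On the scale of log2(FPKM + 1), 2 of the 33 measured genes were higher in SCM than in DMEM by 2-fold or more and 1 was lower by as much. The higher ones were the ligand genes Sema3b and Sema7a and the lower one the receptor gene Plxnd1. Of all 12334 measured rows 3.1% were called higher and 2.8% lower, and of the 10081 measured protein-coding rows 2.48% higher and 1.44% lower. The shares among the guidance genes, 6.06% and 3.03%, rest on 2 genes and 1 gene, and they are not a result about the group. The median log2 ratio was -0.16, beside -0.034 for all measured rows, with 14 genes above 0 and 19 below. When TPM took the place of FPKM, 3 of 44 measured guidance genes were called higher and 6 lower, and the shares of all rows were larger too, at 6.09% higher and 6.90% lower.

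Plain FPKM ratios, with no pseudocount, show more of the low genes. By this measure, 3 measured genes were at least 2-fold higher with a 95% exact (Clopper-Pearson) counting interval that excluded 1, and 2 were at least 2-fold lower, against 4.04% and 2.62% of protein-coding rows (4.73% and 4.46% of all rows). Sema3f joined the higher genes and Sema6b the lower ones. The intervals come from the read counts and cover counting error only, and since amplified copies were counted, without molecular identifiers, they may be too narrow. The interval lay below 1 for 18 and above 1 for 13 of the 33 guidance genes. Over all 12334 measured rows it lay below 1 for 4480 and above 1 for 3600.

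**Figure D2:**
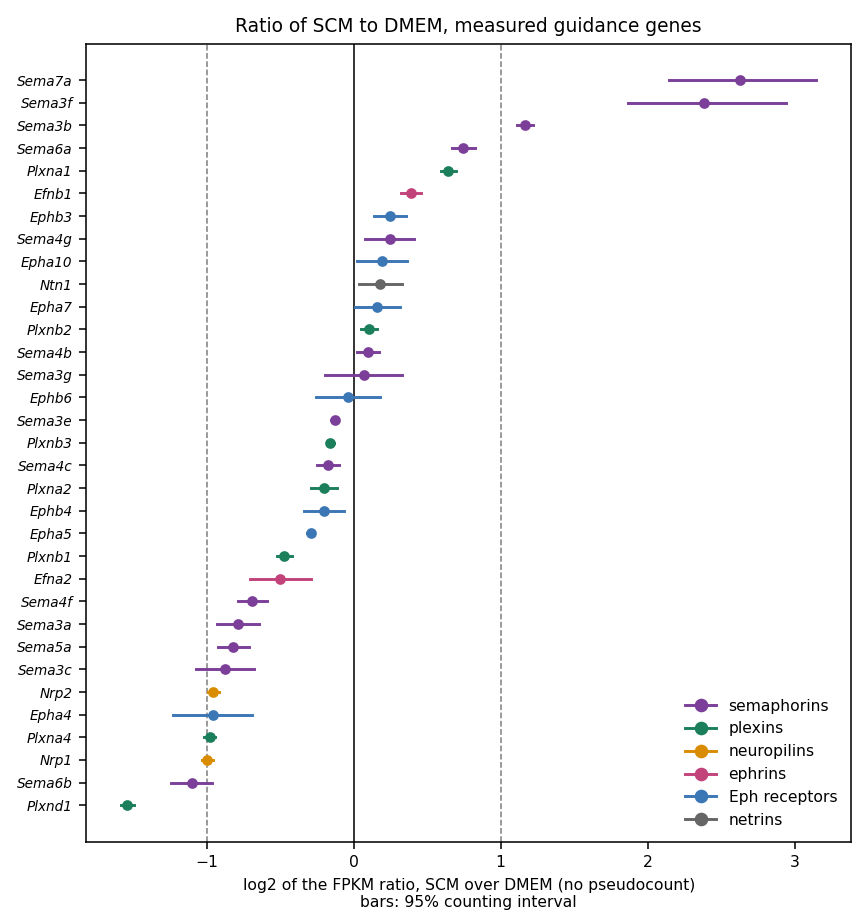
Plain FPKM ratio of SCM over DMEM for the 33 measured guidance genes, on a log2 axis, sorted by ratio and coloured by family; points are the ratios, bars their 95% counting intervals, and dashed lines mark 2-fold. Sema7a, Sema3f and Sema3b lie beyond 2-fold on the right and Plxnd1 and Sema6b on the left, with Nrp1, Plxna4, Epha4 and Nrp2 close to the left line.

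Among the ligands, the secreted class 3 semaphorins had the highest summed level, 151 FPKM in SCM and 129 FPKM in DMEM. Sema3e, which binds plexin D1 without a neuropilin, was the most abundant ligand in both libraries, at 89.0 FPKM (30304 reads) in SCM and 97.4 FPKM (26293 reads) in DMEM. Its ratio of 0.914 (95% counting interval 0.899 to 0.930) placed it near equality.

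Sema3b, a class 3 semaphorin that signals through neuropilins, had 56.7 FPKM (9933 reads) in SCM and 25.3 FPKM (3514 reads) in DMEM. It was 2.24-fold higher in SCM (2.16 to 2.33), with a log2 ratio of 1.13 on the log2(FPKM + 1) scale. Its share of the summed class 3 level was 37.5% in SCM and 19.6% in DMEM, while that of Sema3e was 58.8% and 75.3%. Sema3f, a ligand of neuropilin-2, was far less abundant, at 1.21 FPKM (230 reads) in SCM and 0.232 FPKM (35 reads) in DMEM. Its plain ratio was 5.21 (3.64 to 7.67), but its log2 ratio of 0.84 stayed under the 2-fold limit.

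The remaining class 3 genes lay the other way or close to equality. Sema3a, the classical repellent that binds neuropilin-1, had 1.34 FPKM in SCM and 2.31 FPKM in DMEM (ratio 0.580, interval 0.525 to 0.641). Sema3c had 1.36 FPKM in SCM and 2.50 FPKM in DMEM, and Sema3g 1.68 FPKM and 1.61 FPKM, with an interval that held 1. Sema3d had 1 read in SCM and 0 in DMEM. Class 3 therefore held genes on both sides, 3 above 0 and 3 below among the 6 measured.

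Sema7a, the single class 7 semaphorin, is held at the membrane by a lipid anchor and binds integrins and plexin C1. It had 2.51 FPKM (304 reads) in SCM and 0.407 FPKM (39 reads) in DMEM, and was 6.18-fold higher in SCM (4.42 to 8.87), the highest log2 ratio of the group at 1.32. Its level stayed low in both libraries. Plxnc1, the plexin that it binds, was not measured, with 16 reads in SCM and 9 in DMEM, whereas Itgb1, the integrin beta 1 chain, had 263 FPKM in SCM and 285 FPKM in DMEM.

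The transmembrane semaphorins of classes 4, 5 and 6 mostly lay within 2-fold. Sema6a and Sema6b, ligands of A plexins, differed in opposite directions. Sema6a had 13.7 FPKM (4404 reads) in SCM and 8.15 FPKM (2082 reads) in DMEM, 1.68-fold higher (1.59 to 1.77). Sema6b had 4.61 FPKM (670 reads) in SCM and 9.88 FPKM (1140 reads) in DMEM, 2.14-fold lower (1.95 to 2.36), with a log2 ratio of -0.96. The FPKM of Sema6a was thus 2.97 times that of Sema6b in SCM (2.74 to 3.23) and 0.826 times in DMEM (0.768 to 0.888), a ratio within each library that no scaling between libraries changes. The sum over class 6 was alike, at 19.3 FPKM in SCM and 19.2 FPKM in DMEM.

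Sema4f, a class 4 semaphorin studied in the contact of Schwann cells with axons, had 7.32 FPKM in SCM and 11.8 FPKM in DMEM, 1.61-fold lower (1.503 to 1.730). Sema4b had 16.6 FPKM in SCM and 15.5 FPKM in DMEM, and Sema4c, a plexin B2 ligand, 17.9 FPKM and 20.2 FPKM. These and Sema4g, at 2.29 FPKM in SCM and 1.93 FPKM in DMEM, lay close to equality. Exons of Sema4c overlap those of the measured row D430040D24Rik, the single such case among the measured guidance genes, and whether the counting used strand is not stated. Sema5a, a class 5 semaphorin with thrombospondin repeats, had 1.77 FPKM in SCM and 3.11 FPKM in DMEM (ratio 0.567, 0.526 to 0.611). Sema4a had 1 read in SCM and 0 in DMEM, Sema5b had 0 reads in both, and Sema4d, Sema6c and Sema6d stayed under 1 FPKM.

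Among the receptors, Plxnd1, Nrp1, Plxna4 and Nrp2 had the lowest ratios of the plexins and neuropilins. They were grouped after their values were seen, and Plxnd1 alone of them was called lower. At a 1.5-fold limit 6 measured guidance genes were lower, these 4 with Sema4f and Sema6b, beside 7.52% of all rows. Their summed level was 91.9 FPKM in SCM and 203 FPKM in DMEM, whereas the other 7 plexins summed to 179.9 FPKM in SCM and 187 FPKM in DMEM.

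Plxnd1 encodes plexin D1, the receptor of Sema3e. It had 23.2 FPKM (6211 reads) in SCM and 67.5 FPKM (14328 reads) in DMEM, and was 2.91-fold lower in SCM (2.823 to 2.997), with a log2 ratio of -1.5004. It ranked 1835 among all rows by FPKM in SCM and 479 in DMEM, and its share of the summed plexin level was 10.5% in SCM and 23.1% in DMEM. Its ligand Sema3e differed little, so that the FPKM of Sema3e was 3.84 times that of Plxnd1 in SCM (3.73 to 3.94) and 1.44 times in DMEM (1.41 to 1.47). Plxnd1 (ENSMUSG00000030123) lies on chromosome 6 at 115954811 to 115995005, minus strand, in the GENCODE annotation of GRCm38.

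The neuropilins are co-receptors of class 3 semaphorins and of some VEGF forms. Nrp1 had 26.9 FPKM (9666 reads) in SCM and 53.8 FPKM (15308 reads) in DMEM, 1.996-fold lower (1.95 to 2.05), and its log2 ratio of -0.97 stayed just inside the limit. Nrp2 had 23.1 FPKM (10023 reads) in SCM and 44.7 FPKM (15408 reads) in DMEM, 1.94-fold lower (1.89 to 1.99), with a log2 ratio of -0.93. Both neuropilins thus kept nearly the same proportion to each other, with 1.17 times as much Nrp1 as Nrp2 in SCM (1.13 to 1.20) and 1.20 times in DMEM (1.18 to 1.23). Against Nrp2, the FPKM of the ligand Sema3b was 2.46 times as high in SCM (2.39 to 2.53) and 0.565 times as high in DMEM (0.545 to 0.586). Of the VEGF genes in the lists, Vegfa had 14.1 FPKM in SCM and 17.2 FPKM in DMEM, and the receptor gene Kdr had 0 reads in both libraries. In GRCm38, Nrp1 (ENSMUSG00000025810) lies on chromosome 8 at 128358604 to 128503363 and Nrp2 (ENSMUSG00000025969) on chromosome 1 at 62703285 to 62818695, both on the plus strand.

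Within the A plexins, which pair with neuropilins and also bind class 6 semaphorins directly, the order of the leading genes differed between the libraries. Plxna4 had 18.7 FPKM (9663 reads) in SCM and 36.9 FPKM (15128 reads) in DMEM, 1.97-fold lower (1.92 to 2.02). Plxna1 had 29.1 FPKM (9648 reads) in SCM and 18.6 FPKM (4900 reads) in DMEM, 1.56-fold higher (1.51 to 1.62). Plxna1 therefore led in SCM, at 1.56 times the FPKM of Plxna4 (1.512 to 1.5999), and Plxna4 led in DMEM, where Plxna1 stood at 0.505 times its level (0.488 to 0.521). Plxna2 had 3.34 FPKM in SCM and 3.84 FPKM in DMEM, and Plxna3 was not measured. The 3 Plxna4 antisense rows, which are not protein-coding, held 2 reads in SCM and 5 in DMEM together.

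The B plexins, receptors of class 4 and class 5 semaphorins, differed less. Plxnb3, reported as a Sema5a receptor, was the most abundant guidance gene in both libraries, at 107 FPKM (25547 reads) in SCM and 119.7 FPKM (22610 reads) in DMEM, with a ratio of 0.896 (0.880 to 0.913). Plxnb2 had 23.0 FPKM in SCM and 21.4 FPKM in DMEM, and Plxnb1, the Sema4d receptor, 16.5 FPKM and 22.9 FPKM (ratio 0.720, 0.695 to 0.746). Over all plexins and neuropilins the summed level was 272 FPKM in SCM and 390 FPKM in DMEM, with 7 of the 9 measured genes below 0, beside 54.2% of all measured rows.

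**Figure D3:**
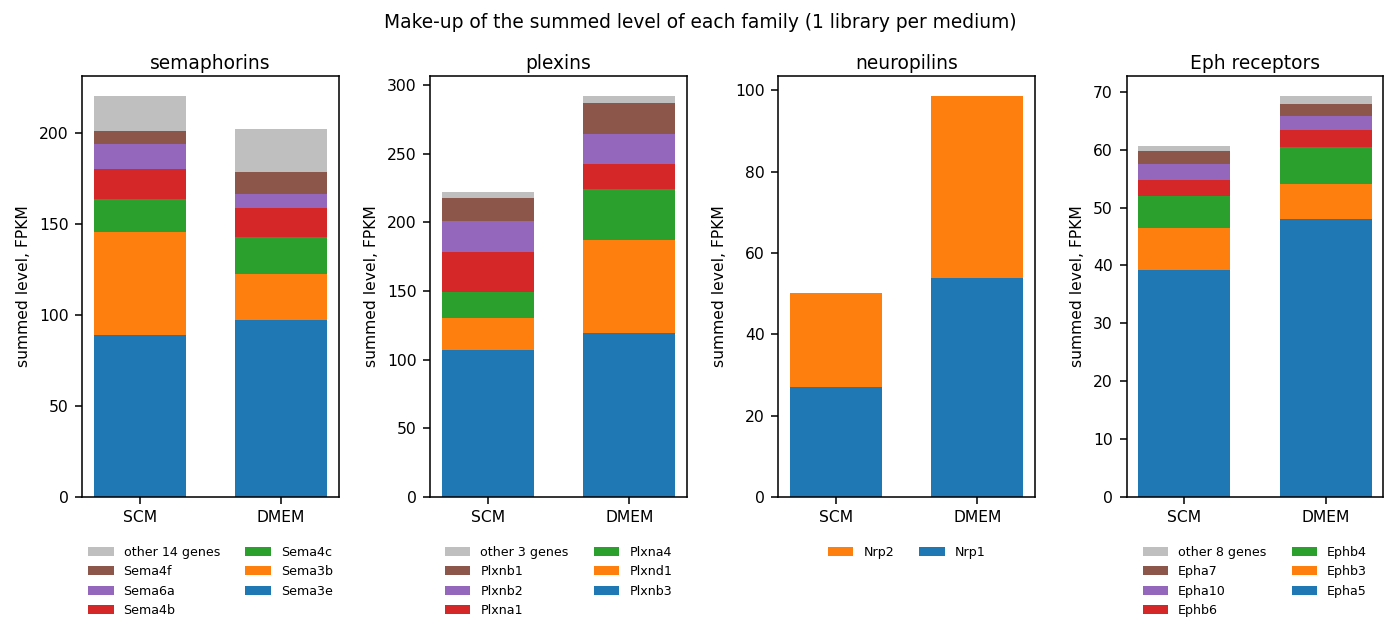
Summed FPKM of the semaphorins, plexins, neuropilins and Eph receptors in the SCM and DMEM libraries, with 1 bar per library, the leading genes of each family in colour and the rest in grey; vertical scales differ between panels. The semaphorin bar is 220 FPKM in SCM and 202 FPKM in DMEM, with a larger Sema3b segment in SCM, and the neuropilin bar is 50.02 FPKM in SCM and 98.5 FPKM in DMEM.

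The promoter sequences of the genes the comparison turns on are shown where the RefSeq table (GRCm38.p6) has them: the receptor genes with lower levels in SCM and the ligand gene with the highest ratio. Each is the 250 bases before a start annotated in RefSeq, which for Nrp1 and Nrp2 lies downstream of the GENCODE start given above, so that the Nrp1 window lies inside the GENCODE gene and the Nrp2 window runs into it. They are written 5′ to 3′ on the gene's strand, and capitals mark GC boxes, the letters GGGCGG on either strand, to which Sp1-type factors bind.
Plxnd1, chr6:115995006-115995255, minus strand: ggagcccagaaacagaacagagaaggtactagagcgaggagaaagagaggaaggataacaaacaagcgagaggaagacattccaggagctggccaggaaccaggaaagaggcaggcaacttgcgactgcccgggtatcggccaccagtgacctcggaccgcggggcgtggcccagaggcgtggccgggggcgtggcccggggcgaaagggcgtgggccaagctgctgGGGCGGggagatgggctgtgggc
Nrp1, chr8:128358823-128359072, plus strand: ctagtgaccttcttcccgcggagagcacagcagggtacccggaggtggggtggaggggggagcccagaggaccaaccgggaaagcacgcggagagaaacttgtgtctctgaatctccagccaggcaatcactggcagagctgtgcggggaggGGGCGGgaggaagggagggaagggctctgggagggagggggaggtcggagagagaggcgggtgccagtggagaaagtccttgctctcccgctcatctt
Nrp2, chr1:62703067-62703316, plus strand: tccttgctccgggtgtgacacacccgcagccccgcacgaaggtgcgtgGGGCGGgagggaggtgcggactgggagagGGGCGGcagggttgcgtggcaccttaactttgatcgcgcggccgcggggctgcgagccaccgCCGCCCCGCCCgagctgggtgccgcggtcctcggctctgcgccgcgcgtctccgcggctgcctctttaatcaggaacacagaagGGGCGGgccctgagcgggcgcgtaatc
Sema7a, chr9:57939862-57940111, plus strand: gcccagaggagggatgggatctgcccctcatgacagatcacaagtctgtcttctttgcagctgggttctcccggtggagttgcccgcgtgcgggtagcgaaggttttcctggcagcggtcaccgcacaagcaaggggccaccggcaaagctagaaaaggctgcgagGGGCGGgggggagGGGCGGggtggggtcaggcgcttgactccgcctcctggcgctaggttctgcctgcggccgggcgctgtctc

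These windows held 1 GC box in Plxnd1, 1 in Nrp1, 5 in Nrp2 and 2 in Sema7a, of which 2 in Nrp2 overlap. Their GC content was 64.8%, 64.4%, 72.4% and 66.4%, above the median of 52.4% over all 32851 windows of this length. The median over the 75 windows of guidance genes was itself 64.4%. A GC box occurred in 32.7% of all windows and in 53 of the 75 windows of guidance genes (70.7%), with 59 of the 68 genes matched by symbol. Motifs searched on both strands were also the AP-1 site TGANTCA, in 6.75% of all windows and 4.0% of guidance windows, and the E-box CACGTG, in 6.02% and 5.33%. The cAMP response element TGACGTCA occurred in 1.55% of all windows and 1.33% of guidance windows. For the CCAAT box the shares were 33.8% and 26.7%. The ATF4 composite letters TGATGNAA occurred in 3.45% of all windows and in 0 guidance windows. None of these 5 further motifs was found in the 4 windows shown. All windows include those of silent genes.

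Ephrins and their receptors were carried mainly by 1 gene on each side. Efnb1, a transmembrane ligand of EphB receptors, had 36.6 FPKM (4634 reads) in SCM and 27.9 FPKM (2801 reads) in DMEM, 1.31-fold higher (1.25 to 1.38), and it made up 85.2% of the summed ephrin level in SCM and 75.7% in DMEM. Efna2, held by a lipid anchor, had 4.75 FPKM (371 reads) in SCM and 6.71 FPKM (416 reads) in DMEM, with a ratio of 0.707 (0.613 to 0.816). The other 6 ephrins stayed under 1 FPKM. Of these, Efna4 had 23 reads in SCM and 43 in DMEM, 2.36-fold lower (1.39 to 4.10). Efnb2, the ligand best known for binding EphB4, had 130 reads in SCM and 60 in DMEM (ratio 1.72, 1.26 to 2.37), and Efnb3 37 reads in SCM and 50 in DMEM (ratio 0.587, 0.373 to 0.916). Efna1 had 25 reads in SCM and 20 in DMEM, Efna5 had 5 in SCM and 10 in DMEM, and Efna3 had 0 in SCM and 1 in DMEM.

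Epha5, a receptor of A-type ephrins, led the Eph family at 39.2 FPKM (24049 reads) in SCM and 48.0 FPKM (23376 reads) in DMEM, with a ratio of 0.816 (0.801 to 0.831). It made up 64.7% of the summed Eph level in SCM and 69.3% in DMEM. The EphB receptors Ephb3 and Ephb4 came next. Ephb3 had 7.23 FPKM in SCM and 6.09 FPKM in DMEM, and Ephb4 5.596 FPKM and 6.44 FPKM. Epha10 and Ephb6, whose kinase domains lack catalytic activity, had 2.69 FPKM and 2.81 FPKM in SCM and 2.36 FPKM and 2.89 FPKM in DMEM, and Epha7 had 2.32 FPKM in SCM and 2.07 FPKM in DMEM. Epha4, which binds ephrins of both types, had 0.643 FPKM (190 reads) in SCM and 1.25 FPKM (293 reads) in DMEM, 1.94-fold lower (1.61 to 2.35).

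None of the 7 measured Eph genes or the 2 measured ephrin genes was 2-fold apart, beside 3.1% of all rows called higher and 2.8% lower. Among the rest, Ephb2, a receptor of B-type ephrins, had 12 reads in SCM and 43 in DMEM, 4.52-fold lower (2.34 to 9.41). Epha2 had 12 reads in SCM and 1 in DMEM (ratio 9.52, 1.41 to 407). Epha1 had 5 and 1 reads and Epha3 0 and 1, and Epha6, Epha8 and Ephb1 had 0 in both. These counts are too small for a level, and the ratios are uncertain to the width of their intervals.

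Of the netrins, Ntn1, a secreted laminin-related cue, was measured, at 4.14 FPKM (953 reads) in SCM and 3.65 FPKM (667 reads) in DMEM, with a ratio of 1.13 (1.03 to 1.25). Ntn4, a basement membrane netrin, had 92 reads in SCM and 38 in DMEM (ratio 1.92, 1.30 to 2.88), Ntn3 33 and 14 reads and Ntn5 0 and 2. Of the Unc5 receptors, which mediate repulsion by netrin, Unc5b had 133 reads in SCM and 115 in DMEM (ratio 0.917, 0.709 to 1.19) and the other 3 had 0 reads in both. The netrin receptor gene Neo1, which encodes neogenin and is not among the 68 genes, had 16.3 FPKM in SCM and 17.8 FPKM in DMEM, and Dcc had 35 and 6 reads. Ntn1, Unc5b and Neo1 thus differed little between the libraries, while Ntn4 and Dcc, at low levels, had more reads in SCM.

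The Slit and Robo pair was nearly absent. Robo1, Robo2, Robo3 and Robo4 had 0 reads in both libraries. Taking 3 reads as the most that a count of 0 allows, this bounds them at 0.00482 to 0.0154 FPKM in SCM and 0.00607 to 0.0195 FPKM in DMEM, depending on gene length. Slit3, a secreted Robo ligand, had 1 read in SCM and 96 reads (0.544 FPKM) in DMEM. That is 121-fold lower in SCM with a counting interval of 21.2 to 4829, at a level under 1 FPKM in both libraries, so it was not among the measured genes. Slit1 had 12 reads in SCM and 16 in DMEM, and Slit2 0 and 3.

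In the plot of all measured rows the guidance genes fall within the cloud of other rows, with few past the 2-fold lines. Of the 35 genes that were not measured, 9 had an interval that excluded 1, 5 below it (Efna4, Efnb3, Ephb2, Plxna3 and Slit3) and 4 above it (Efnb2, Epha2, Ntn4 and Sema4d). The share of all rows under 1 FPKM with such an interval was not computed, so these counts are not a result about the group.

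**Figure D4:**
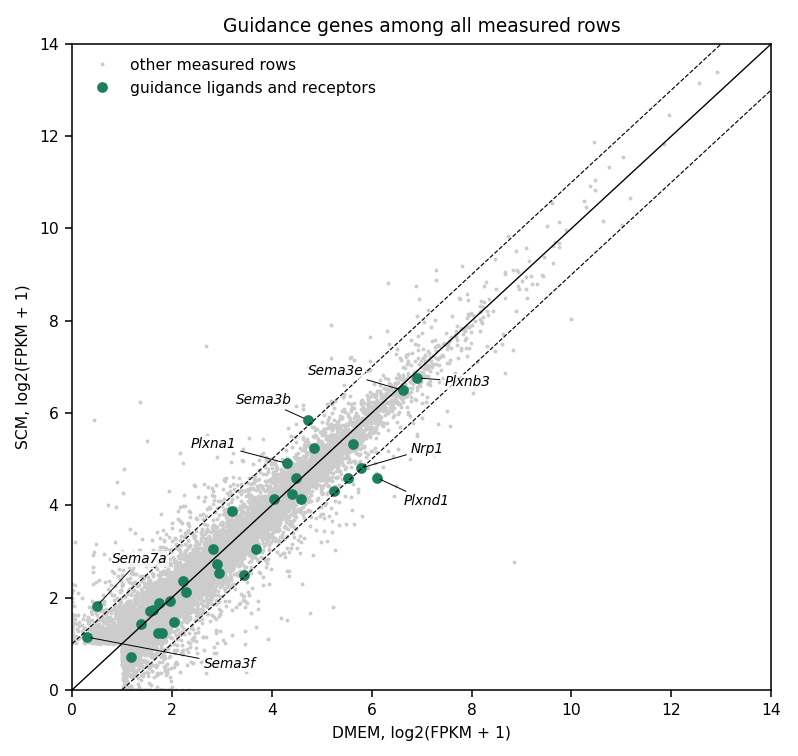
Level in the SCM library (vertical) against the DMEM library (horizontal), both as log2(FPKM + 1), for the 12334 measured rows; guidance genes are green, the solid line marks equality and the dashed lines 2-fold. Plxnd1 lies below the lower dashed line and Sema3b and Sema7a above the upper one.

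Some guidance genes lie close together in the genome, and 11 neighbouring pairs were less than 1000000 bases apart in GRCm38. Sema3b and Sema3f, both higher in SCM by plain ratio, lie 72.3 kb apart on chromosome 9, on the minus strand, at 107597674 to 107609229 and 107681500 to 107710475. Robo4 and Robo3 are 0.553 kb apart on the same chromosome and had 0 reads. Sema3a and Sema3e, 422.7 kb apart on chromosome 5, differed in level, with 1.34 FPKM and 89.0 FPKM in SCM and 2.31 FPKM and 97.4 FPKM in DMEM. Efna1, Efna3 and Efna4 on chromosome 3 were all under 1 FPKM.

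Genes that act with the guidance receptors inside the cell, and other cues, receptors and co-receptors, were taken from 5 lists. Together these held 100 genes, of which 72 were measured, 3 were higher in SCM by 2-fold or more and 3 lower, with a median log2 ratio of -0.04. These numbers are near the shares among all rows, 3.1% higher and 2.8% lower.

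Of 24 semaphorin and plexin effectors, the 21 measured ones had a median log2 ratio of 0.02, and 1 was called higher and 0 lower. Mical2, a flavoprotein that oxidises actin, had 11.3 FPKM in SCM and 3.97 FPKM in DMEM, 2.84-fold higher (2.69 to 2.99), and its relative Mical3 18.9 FPKM and 35.1 FPKM, 1.86-fold lower (1.82 to 1.90). The small GTPase gene Rnd2, which overlaps the measured row Vat1, had 6.47 FPKM in SCM and 3.35 FPKM in DMEM. MICAL genes thus lay on both sides, as the A plexins did.

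Of 21 Eph and ephrin effectors 15 were measured, 0 of them called in either direction, and their median log2 ratio was -0.04. The widest ratios in that list were those of the exchange factor genes Vav2, at 6.88 FPKM in SCM and 4.66 FPKM in DMEM, and Ngef, at 3.65 FPKM and 5.17 FPKM, and of the kinase gene Src, at 11.6 FPKM and 9.24 FPKM. Adam10, the protease that sheds ephrins, had 219 FPKM in SCM and 205 FPKM in DMEM. Of 18 Slit and Robo effectors and other ligands, again 15 were measured and 0 called, with a median log2 ratio of -0.03. Its widest ratios were those of Vasp (6.97 FPKM in SCM and 10.2 FPKM in DMEM), Rac1 (40.6 FPKM and 29.7 FPKM) and Flrt3 (17.5 FPKM and 13.3 FPKM). These effector genes were present although the Robo genes had 0 reads.

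The netrin list, with other netrin receptors and netrin-G genes, had 12 of 18 genes measured and a median log2 ratio of -0.08, with 1 gene called higher and 2 lower. Ntng1, a lipid-anchored netrin-G that does not bind the classical netrin receptors, had 42.3 FPKM (12788 reads) in SCM and 13.1 FPKM (3132 reads) in DMEM, 3.24-fold higher (3.11 to 3.37). Its known partner gene Lrrc4c had 0 reads in both. Myo10, a filopodial myosin that carries netrin receptors, had 35.1 FPKM in SCM and 79.1 FPKM in DMEM, 2.26-fold lower (2.21 to 2.31).

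Of 22 other cues and co-receptors 12 were measured; their median log2 ratio was -0.14, and 1 gene was called higher and 1 lower. Chl1, an L1-family adhesion molecule that takes part in class 3 semaphorin signalling, had 34.1 FPKM in SCM and 3.48 FPKM in DMEM. Rtn4, the Nogo gene, whose exons overlap the measured row Eml6, had 136 FPKM in SCM and 274 FPKM in DMEM, 2.01-fold lower (1.98 to 2.04). Nrcam, an L1-family member that pairs with neuropilin-2, had 7.97 FPKM in SCM and 13.4 FPKM in DMEM, and L1cam, which pairs with neuropilin-1 and whose exons overlap the measured row Arhgap4, 129.8 FPKM and 109 FPKM. The L1-family genes thus differed in both directions.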

How the data were processed

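The deposited table holds FPKM values of the authors for 55323 rows in 2 libraries, per the file headers, with gene lengths, types and coordinates. Per the submitters' processing notes, STAR 2.7.9a, featureCounts 2.0.1, cutadapt 3.1, Trimmomatic 0.39 and Trim Galore were used, with the builds mm10 and GRCm38.p6; the sources used here state no role, order or strand setting. Per the labels' protocols, the libraries were made from total RNA with a stranded kit. The column names carry the numbers 1 for DMEM and 3 for SCM, and the deposited table has no columns of other samples. FPKM times gene length is a whole multiple of the value of 1 read in each library, so read numbers were recovered (100% of rows within 0.01 of a whole read). They were not given to a count model, since each medium has 1 library.

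Rows that reached 1 FPKM in either library were compared as the difference SCM minus DMEM of log2(FPKM + 1), called at 2-fold. Plain ratios have 95% Clopper-Pearson intervals from the recovered reads (scipy 1.17.1). The steps were tested on simulated reads. The guidance genes and all lists were chosen with earlier results of these data known. By rule, values are given for every gene called at 2-fold, for the 2 genes of highest mean FPKM and the highest and lowest log2 ratio in each family, and for genes past 2-fold by plain ratio only; other genes, such as Plxna4, Sema6a and the list genes Adam10, Itgb1, Neo1 and L1cam, were named after their values were seen. From each pathway list up to 3 genes with the widest ratio were taken, of which 1 is not reported here. Of the 68 genes, 66 had the GENCODE M21 span at another position in the table, so printed coordinates are those of GRCm38 annotations, matched by gene identifier, or of RefSeq. Alternatives changed the pseudocount, the filter, the scaling, the unit, the fold, the use of the interval and overlapping rows.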

Additional observations from a re-analysis of the deposited data

How the results depend on the processing

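The direction of all 16 measured genes named by the rule was the same under median-of-ratios scaling, upper-quartile scaling and TPM. The other alternatives could not reverse it. A pseudocount cannot change the sign of a ratio, and the filters, fold, interval and overlap settings leave a gene's ratio as it was. The filter of 5 FPKM gave no value for Epha4, Ntn1, Sema3f and Sema7a. Of 156 values, 22 moved further, on the log2 scale, than the distance from the plain ratio to an end of its counting interval. All 22 arose with another pseudocount, median-of-ratios scaling or TPM. The 156 include values from settings that leave a gene's ratio unchanged and could not move, so the share is not a measure of stability. Genes called at least 2-fold higher in SCM, 2 as reported, numbered 3 with a pseudocount of 0.1 FPKM (Sema3f added), 1 with a pseudocount of 3 FPKM or a filter of 5 FPKM (Sema3b), 3 with TPM and 5 at a 1.5-fold limit. Genes called lower, 1 as reported, numbered 2 with a pseudocount of 0.1 FPKM (Sema6b added), 6 with TPM (Nrp1, Nrp2, Plxna4, Plxnd1, Sema6b and Slit3) and 6 at a 1.5-fold limit. The shares of all rows called higher and lower moved as well, to 5.52% and 5.07% with a pseudocount of 0.1 FPKM, to 6.09% and 6.90% with TPM, where 44 guidance genes were measured, and to 7.90% and 7.52% at a 1.5-fold limit. Both numbers were unchanged with no filter, with median-of-ratios or upper-quartile scaling, with a required counting interval, and without overlapping rows. The median log2 ratio of -0.16 became -0.13 with a pseudocount of 3 FPKM, -0.044 with no filter, -0.17 with a filter of 5 FPKM, -0.12 with median-of-ratios scaling, -0.15 with upper-quartile scaling, -0.19 with TPM and -0.14 without overlapping rows. The cause of these shifts was not tested. No paired analysis was possible because there was 1 library per medium, and no library could be left out. Depth limits the genes under 1 FPKM, and the lack of replicates limits all differences.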
